A study of Mus musculus with 4 samples.

Results

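Collagens and the other structural genes of the extracellular matrix were examined in mouse embryonic stem (ES) cells and in cells derived from them. The genes were 40 named mouse genes, matched by symbol to rows of a table of 47633 genes, and each of the 40 was found as 1 row. Of these, 38 reached 1 FPKM (fragment counts scaled by gene length and library total, so that levels can be compared between genes) in at least 1 library and were tested, and Lum and Eln did not. The list was drawn up by function, as structural proteins of the matrix and the enzymes that fold and crosslink them. It was chosen with earlier results of these data known, so its shares beside those of all genes are description and not support.

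Total RNA was sequenced from 4 libraries of 129S2/SvPas cells. The ES cells, with 2 libraries, were grown in serum with leukaemia inhibitory factor (LIF) on mitomycin C-treated embryonic fibroblasts from C57/BL6 E14.5 embryos. A single library, the day-2 library, came from cells 2 days after LIF was removed. Another, the day-5 library, came from cells labelled embryoid body, 5 days after LIF was removed. All 4 samples carry the same label of E14.5 for the feeders. The fibroblast feeders produce matrix themselves, and the labels do not say whether feeder cells were separated from any of the 4 samples before RNA was taken.

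As background, the extracellular matrix has an interstitial part and a basement membrane. Interstitial matrix is built by fibroblasts from fibrillar collagens, collagen VI, fibronectin and elastic fibres. Basement membranes are thin sheets of laminin, collagen IV, nidogen and heparan sulphate proteoglycans beneath epithelia, and cells of the early embryo and ES cells make them as well. Collagen chains are hydroxylated and folded in the endoplasmic reticulum, assembled as trimers, secreted and then crosslinked by lysyl oxidases outside the cell.

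Depth was estimated at 31.5 M fragments in ES 1, 26.4 in ES 2, 18.1 in the day-2 library and 26.4 in the day-5 library. In a gene model of 1 kb, 3 fragments then corresponded to between 0.0954 and 0.166 FPKM, which covers counting error only. ES markers were present in every library, with Pou5f1 at 455 FPKM or more. The summed level of 6 ES genes was 1818 FPKM on day 2 and 2334 in the day-5 library against 1639 and 1638 in ES cells. The most abundant, Dppa5a, was at 805 FPKM on day 2 and 1136 on day 5 against 561 and 577. On day 2, 2 of the 6 were above both ES libraries and 3 below, against 48.4% and 36.6% of all genes. On day 5, 5 of the 6 were above both ES libraries and 1, Pou5f1, was below, against 37.6% and 42.9% of all genes. The day-5 library is therefore named by its labelled time and not by a cell type, and a swapped or mislabelled sample could not be told apart from the labelled one. Neither derived condition had a second library. Whether the ES libraries are separate cultures is not labelled, so p-values measure only the spread within this pair, and that spread may be technical.

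The ES libraries were close for these genes. No tested gene of the 40 was 2-fold apart between them, the median of the higher over the lower value was 1.05, and the largest ratio was 1.70, for Col6a3 at 0.396 and 0.675 FPKM. Levels spanned a wide range in ES cells. Fn1 (fibronectin, the glycoprotein that links integrins to collagen) was the most abundant at 240.1 and 239.6 FPKM, which ranked 320 and 307 among all genes of the table. P4hb, the protein disulphide isomerase that is also a subunit of collagen prolyl hydroxylase, followed at 222 and 228 FPKM, and Nid2 (nidogen 2, a linker of basement membranes) was at 109.8 and 113 FPKM. Dpt and Lum were at or near 0.

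**Figure D1:**
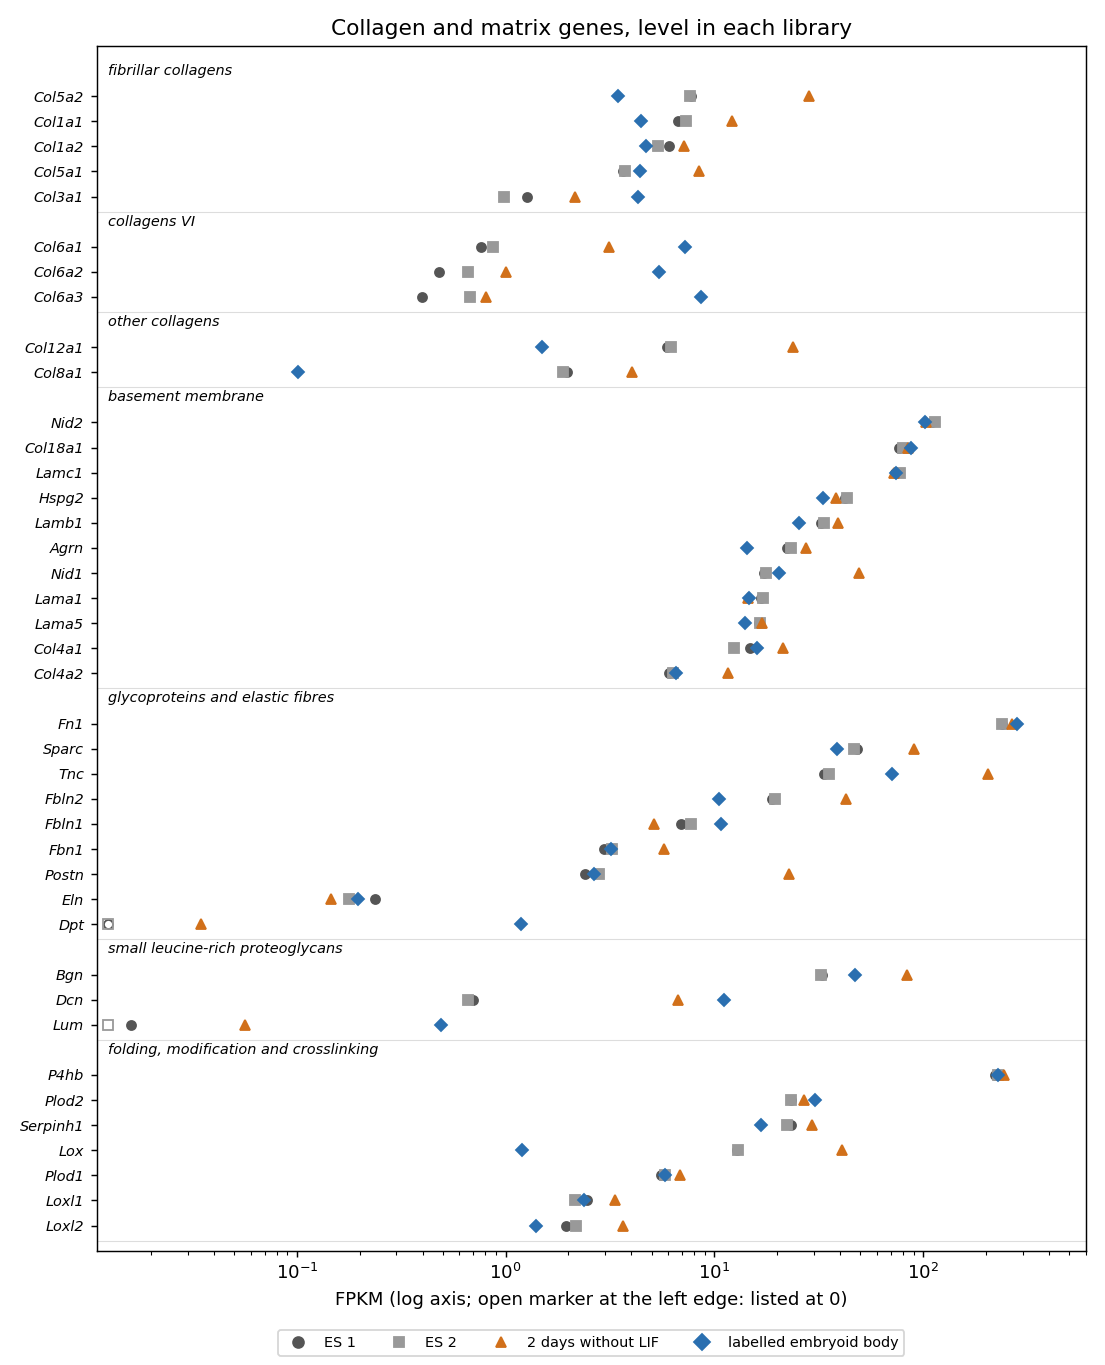
Level of each of the 40 genes in FPKM on a log axis, in 7 groups by role, with 1 marker for each of the 4 libraries. The ES markers nearly coincide for most genes, the day-2 (LIF withdrawal) marker is the highest of the 4 for 24 genes, and the day-5 (embryoid body) marker is the highest for 11.

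At 2 days without LIF, several matrix genes were higher than in ES cells. Postn, Dcn, Tnc, Lox, Col12a1 and Col5a2 stood between 3.16 and 9.83 times their ES mean. Of the 38 tested genes 9 rose and 0 fell by limma, a linear model with moderated variances, at a Benjamini-Hochberg adjusted p under 0.05 over all genes and a difference of at least 1 on the log2(FPKM + 1) scale. That is 23.7% of them, where 7.67% of the 15676 genes tested were called in either direction, 7.32% were called higher and 0.357% lower. At an unadjusted limma p under 0.05, 23 of the 38 were higher and 2, Lama1 and Hspg2, lower, against 24.1% and 13.1% of all genes. By size alone, 10 were at least 1 above both ES libraries on the log2(FPKM + 1) scale and 0 were at least 1 below, against 8.84% and 0.836% of all genes. This scale understates the folds of low genes, so Col5a1 and Col8a1, at 2.28 and 2.10 times the ES mean in FPKM, are not among the 10. The tenth was Col6a1. Without regard to size, 33 lay above both ES libraries and 5 below, against 48.4% and 36.6%. The median difference was 0.49 over the 38 and 0.38 over all 40, beside 0.04 over all genes tested. Because no derived condition is replicated, the ES pair gives the fit its 1 residual degree of freedom. Markers of fibroblasts outside the list were higher too, with a sum of 422 FPKM on day 2 against 214 in each ES library, and the sum of 6 contractile genes was 584 FPKM against 275 and 284. Their part in these differences was not tested.

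Reads of overlapping genes on opposite strands may be shared, so the calls were also read in a strand-clear set. It holds 7175 genes, protein-coding or long non-coding, with exons of 1000 nt or more and no gene body opposite them. There 6 of 23 matrix genes rose in the day-2 library, namely Col5a2, Col6a1, Postn, Dcn, Bgn and Fbln2, against 3.07% called and 2.44% called higher in that set. Among protein-coding genes alone 11 of 38 rose, with Col5a1 and Col6a1 added, against 4.55% called. In both narrower sets a gene keeps its values, and its adjusted p changes because fewer genes share the fit and the adjustment. A lower adjusted p there is no separate support.

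At 5 days without LIF the genes were divided. Collagen VI, Col3a1, Dcn and Dpt were higher than in ES cells, whereas Lox, Col12a1 and Col8a1 were lower. By the same size rule on the log2(FPKM + 1) scale, 6 of the 38 were above both ES libraries and 3 below, against 1.63% and 0.734% of all genes. Of the 6, Dpt, Col6a2 and Col6a3 reached 1 FPKM in the day-5 library alone. The filter thus kept them only through the library where they were high. Limma over all genes called 1 of the 38, Dpt, which was listed at 0 in both ES libraries, so its p rests on variance borrowed from other genes. The background was 0.396% of all genes. At an unadjusted limma p under 0.05, 12 of the 38 were higher and 13 lower, against 12.5% and 15.2% of all genes. The strand-clear set gave 6 calls among 23, of which Col3a1, Col6a1, Col6a2, Col6a3 and Dcn rose and Col8a1 fell, where 2.3% of that set was called, 1.51% higher and 0.794% lower. Among protein-coding genes alone 3 were called, Col6a1 and Dcn higher and Lox lower, against 0.558%. Without regard to size, 16 lay above both ES libraries and 16 below, against 37.6% and 42.9%. The median difference was 0.03 over the 38 and -0.01 over all genes. Both comparisons share their ES libraries, so the 2 sets of differences are not independent. The sums of fibroblast and contractile markers were 114 and 58.8 FPKM on day 5, both below ES cells, although 10 of 17 fibroblast genes were above both ES libraries. Their part was not tested.

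**Figure D2:**
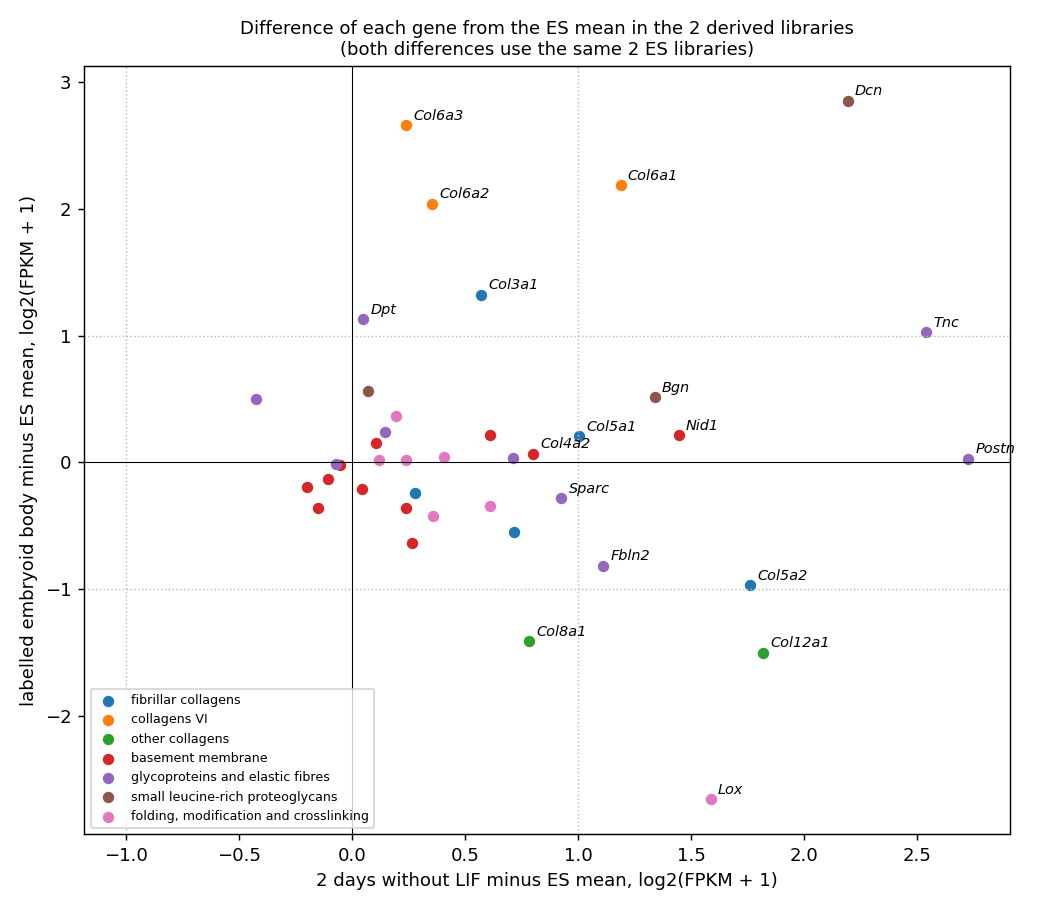
Difference of each of the 40 genes from the ES mean on the log2(FPKM + 1) scale, in the day-2 (LIF withdrawal) library on the horizontal axis and the day-5 (embryoid body) library on the vertical axis, coloured by role, with dotted lines at differences of 1. Lox, Col12a1, Col8a1 and Col5a2 lie to the lower right, collagen VI and Dcn lie at the top, and most basement membrane genes lie near the origin.

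Fibrillar collagens form the banded fibres of connective tissue. Each of the 5 genes was above both ES libraries on day 2, against 48.4% of all genes. Over all genes limma called 1 of them on day 2, Col5a2, when 7.67% of all genes were called. Col5a2 encodes a chain of collagen V, which nucleates and limits the width of collagen I fibrils. It was at 7.72 and 7.64 FPKM in ES cells, 28.4 on day 2 and 3.44 in the day-5 library. The day-2 value was 3.70 times the ES mean (log2 difference 1.76, SE 0.04, limma adjusted p = 0.0202). The day-5 library was below both ES libraries (-0.97, limma adjusted p = 0.139, or 0.0237 among strand-clear genes) at 2.23-fold in FPKM, a difference just under the threshold of 1 on the log2(FPKM + 1) scale. Col5a1, the partner chain, was at 3.65 and 3.73, 8.40 and 4.42 FPKM in the same order. It was higher on day 2 (1.00) with a limma adjusted p of 0.0517 over all genes, and the p ranged from 0.0260 to 0.0717 over 6 alternatives. It was called without a filter, without the variance trend and among protein-coding genes.

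Col1a1 and Col1a2 encode the chains of collagen I, the main collagen of skin and bone. Col1a1 was at 6.71 and 7.29 FPKM in ES cells, 12.1 on day 2 and 4.47 in the day-5 library, and Col1a2 at 6.04 and 5.38, 7.13 and 4.68. Both were highest on day 2 and lowest in the day-5 library, and neither was called in either comparison. The ratio of Col1a1 to Col1a2 was 1.11 and 1.35 in ES cells, 1.70 on day 2 and 0.956 in the day-5 library. Col3a1, the collagen III gene of distensible tissues, followed another order. It was at 1.27 and 0.980 FPKM in ES cells, 2.14 on day 2 and 4.31 in the day-5 library, 3.83 times its ES mean (1.32, SE 0.13, limma adjusted p = 0.139 over all genes), and it rose in the strand-clear set (adjusted p = 0.0284).

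Col3a1 and Col5a2 are neighbours, so their contrasting order was set beside their positions. In mm10, Col3a1 (ENSMUSG00000026043.18) lies on chromosome 1, 45311538 to 45349706, plus strand. Col5a2 (ENSMUSG00000026042.16) lies at 45374321 to 45503282, minus strand, so the genes converge with 24614 nt between them and 0 protein-coding genes in the gap. The ratio of Col5a2 to Col3a1 was 6.09 and 7.80 in ES cells, 13.2 on day 2 and 0.799 in the day-5 library. Col5a2 was thus the more abundant of the pair in 3 libraries and the less abundant in the last.

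Collagen VI forms beaded microfilaments around cells from chains encoded by Col6a1, Col6a2 and Col6a3. All of these genes were under 1 FPKM in ES cells and highest in the day-5 library. Col6a3 was at 0.396 and 0.675 FPKM in ES cells, 0.805 on day 2 and 8.68 in the day-5 library, 16.2 times the ES mean. Col6a2 was at 0.477 and 0.658, 0.999 and 5.44 FPKM, 9.58 times the ES mean in the last. Col6a1 was at 0.764 and 0.866, 3.13 and 7.27 FPKM, 8.92 times the ES mean in the last. In all of them the day-5 library lay above the other 3 libraries. The log2 differences from ES cells were 2.66, 2.04 and 2.19, with limma adjusted p of 0.139, 0.139 and 0.135 over all genes. All 3 genes lie in the strand-clear set, where each rose by limma on the same values (adjusted p = 0.0220, 0.0217 and 0.0169). Fewer genes share the fit and the adjustment in that set. Col6a2 and Col6a3 passed the filter of 1 FPKM through the day-5 library alone.

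The chains of collagen VI were not raised evenly on day 2. Col6a1 stood at 3.84 times its ES mean (1.19, limma adjusted p = 0.0517, or 0.0188 among strand-clear genes), while Col6a2 and Col6a3 stood at 1.76 and 1.50 times (adjusted p = 0.200 and 0.435). For Col6a1 the adjusted p ranged from 0.0188 to 0.0753 over 7 alternatives. The ratio of Col6a1 to Col6a3 was 1.93 and 1.28 in ES cells, 3.89 on day 2 and 0.838 in the day-5 library. In mm10, Col6a1 (ENSMUSG00000001119.7, chromosome 10, 76708792 to 76726168) and Col6a2 (ENSMUSG00000020241.13, 76595762 to 76623630) are minus-strand neighbours 85161 nt apart, and Col6a3 (ENSMUSG00000048126.16) lies on chromosome 1.

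The sequences just before the starts of these genes, and of Col3a1 and Tnc, are shown so that genes on 3 chromosomes that stood above ES levels on day 5 can be compared. They come from RefSeq on GRCm38.p6 (mm10) and are written 5′ to 3′ on the gene's strand. Each covers up to 250 bases before the outermost RefSeq start, without bases that GENCODE annotates as exon, which shortened Col6a1 to 126 bases. Capitals mark matches, on either strand, to TATAAA (the core promoter box), to GGGCGG (the core of a GC box), to CCAAT, to the AP-1 site TGANTCA, or to the TEAD site, which reads GGAATG. The windows are chr10:76726169-76726294 for Col6a1, chr10:76623631-76623880 for Col6a2, chr1:90843972-90844221 for Col6a3, chr1:45311288-45311537 for Col3a1 and chr4:64047016-64047265 for Tnc. All are on the minus strand except Col3a1.
Col6a1: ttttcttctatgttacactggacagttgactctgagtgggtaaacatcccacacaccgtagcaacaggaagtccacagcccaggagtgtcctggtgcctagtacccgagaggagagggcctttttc
Col6a2: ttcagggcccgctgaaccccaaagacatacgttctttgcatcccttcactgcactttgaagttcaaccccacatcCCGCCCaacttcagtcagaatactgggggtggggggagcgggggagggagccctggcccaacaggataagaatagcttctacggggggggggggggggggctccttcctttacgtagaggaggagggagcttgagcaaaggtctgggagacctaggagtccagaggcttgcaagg
Col6a3: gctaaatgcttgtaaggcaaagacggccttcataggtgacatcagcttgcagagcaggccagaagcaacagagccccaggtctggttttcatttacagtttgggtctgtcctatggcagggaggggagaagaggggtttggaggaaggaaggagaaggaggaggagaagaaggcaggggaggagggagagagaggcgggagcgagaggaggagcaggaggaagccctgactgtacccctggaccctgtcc
Col3a1: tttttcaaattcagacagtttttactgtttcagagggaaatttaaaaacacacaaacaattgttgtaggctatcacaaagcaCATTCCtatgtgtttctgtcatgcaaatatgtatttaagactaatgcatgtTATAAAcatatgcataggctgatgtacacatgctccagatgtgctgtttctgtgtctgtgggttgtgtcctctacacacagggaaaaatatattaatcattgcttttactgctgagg
Tnc: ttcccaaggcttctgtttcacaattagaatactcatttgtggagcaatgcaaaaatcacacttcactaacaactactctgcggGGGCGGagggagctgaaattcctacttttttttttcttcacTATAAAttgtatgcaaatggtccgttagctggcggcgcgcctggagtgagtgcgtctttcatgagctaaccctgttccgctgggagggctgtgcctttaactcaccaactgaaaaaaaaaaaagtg

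None of the 5 motifs was shared by the 3 collagen VI windows. Col6a2 held 1 GGGCGG match, 175 bases before its start, and the printed parts of Col6a1 and Col6a3 held no match. In Col6a1 a TGANTCA match stood 90 bases before the RefSeq start, within the 124 bases left out as exon. Col3a1 and Tnc held TATAAA 117 and 126 bases before their starts. Over 32851 RefSeq starts, windows of 250 bases held TATAAA in 12.4%, GGGCGG in 32.7%, CCAAT in 33.8%, TGANTCA in 6.75% and GGAATG in 12.6%. Of the 40 genes, 26 were in the RefSeq table, with 32 starts. Of these starts, 22 held GGGCGG, 7 CCAAT, 5 TATAAA, 4 GGAATG and 1 TGANTCA. By gene, 19 of the 26 had GGGCGG at 1 or more starts, 7 CCAAT, 4 TATAAA, 4 GGAATG and 1 TGANTCA. A match describes the letters only.

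Col12a1 and Col8a1 were both above ES cells on day 2 and below them on day 5. Col12a1, a fibril-associated collagen of tendons and other dense tissue, was at 5.93 and 6.20 FPKM in ES cells, 23.9 on day 2 and 1.50 in the day-5 library. It rose 3.94-fold on day 2 (1.82, SE 0.06, limma adjusted p = 0.0298) and was 4.05-fold below ES cells in the day-5 library (-1.50, adjusted p = 0.139). Col8a1, a short-chain collagen of vessel walls and the cornea, was at 1.97 and 1.89, 4.04 and 0.101 FPKM. It was 19.1-fold below ES cells in the day-5 library (-1.41, limma adjusted p = 0.134 over all genes), where it fell in the strand-clear set (adjusted p = 0.0229). On day 2 it was at 2.10 times the ES mean in FPKM, and its difference of 0.78 on the log2(FPKM + 1) scale was below the threshold of 1, at a limma adjusted p of 0.0486. 

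**Figure D3:**
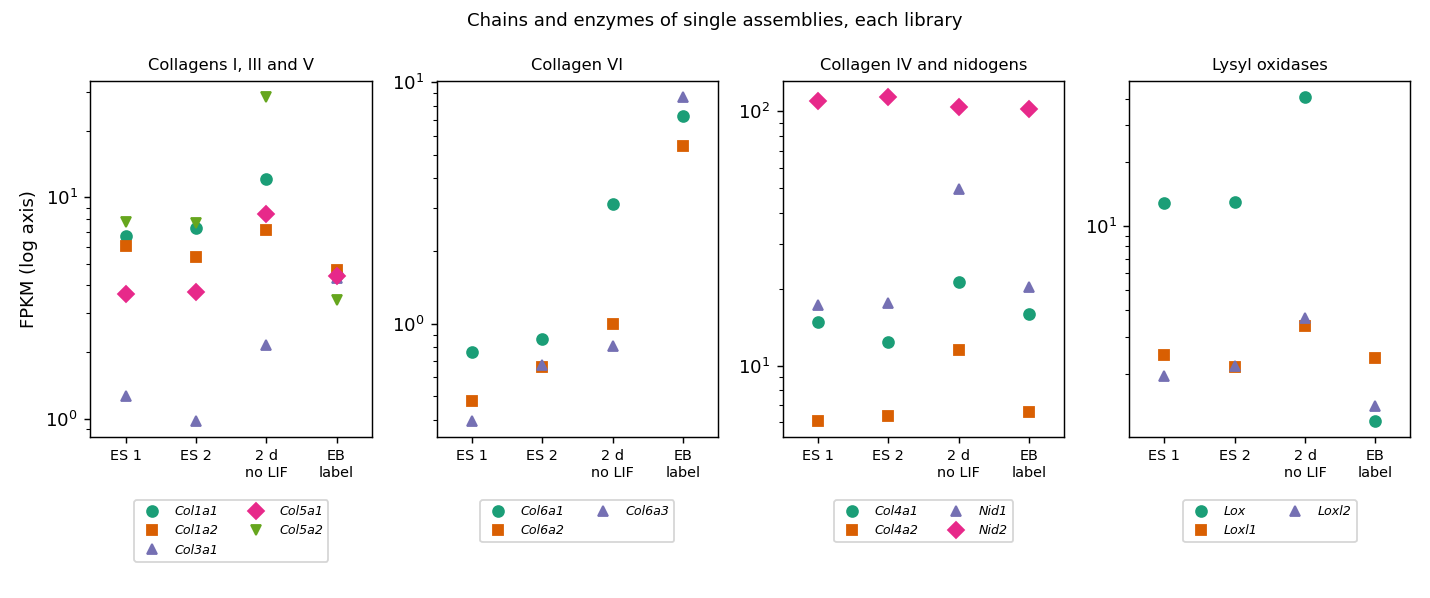
FPKM on log axes in each library for collagens I, III and V, collagen VI, collagen IV with the nidogens, and the lysyl oxidases, with 1 point for each gene and library. Col6a1, Col6a2 and Col6a3 reach 5.44 to 8.68 in the day-5 library, Nid1 lies closest to Nid2 on day 2, and Lox runs from 40.7 on day 2 to 1.20 in the day-5 library.

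Basement membrane genes had the highest summed level of the 7 groups in ES cells. Of these 11 genes 1 was called, on day 2, against 7.67% of all genes. Their 11 levels summed to 428 and 441 FPKM in ES cells, 479 on day 2 and 408 in the day-5 library, and the median differences from ES cells were 0.11 and -0.13. Lama1, Lamb1 and Lamc1 encode the laminin trimer of the earliest embryonic basement membranes. Lama1 was at 16.8 and 17.1 FPKM in ES cells, 14.6 on day 2 and 14.7 in the day-5 library. Lamc1, the chain common to most laminins, was at 73.0 and 77.6, 72.4 and 74.1 FPKM, and Lamb1 at 32.6 and 33.4, 39.1 and 25.6 FPKM. Lamc1 was 4.35 to 5.05 times Lama1 in every library. Lama5, the alpha chain of another early laminin, was at 16.4 and 16.5, 16.9 and 14.1 FPKM. None of these laminin genes was called in either comparison.

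Nidogens bridge laminin and collagen IV, and the pair of genes differed. Nid1 was at 17.3 and 17.7 FPKM in ES cells, 49.3 on day 2 and 20.5 in the day-5 library, and rose 2.82-fold on day 2 (1.44, SE 0.03, limma adjusted p = 0.0171). It was the 1 basement membrane gene of 11 that was called, on day 2, when 7.67% of all genes were called. Nid2 was at 109.8 and 113, 103 and 101.9 FPKM in the same order (-0.11 on day 2, adjusted p = 0.218). The ratio of Nid2 to Nid1 was 6.35 and 6.41 in ES cells, 2.10 on day 2 and 4.97 in the day-5 library. Exons of Rtraf on the opposite strand cover 8.45% of the exon length of Nid2, and Rtraf reached 97.0 FPKM in its highest library. Since a strand setting is not labelled, the level of Nid2 is uncertain by an amount that was not measured. Nid1 is outside the strand-clear set as well, with 2.06% of its exon length under an opposite gene.

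Col4a1 and Col4a2 encode the network-forming chains of collagen IV and are transcribed away from each other from adjoining starts on chromosome 8. Col4a1 (11198423 to 11312826, minus strand) and Col4a2 (11312805 to 11449287, plus strand) overlap by 22 nt in GENCODE. Col4a1 was at 14.9 and 12.5 FPKM in ES cells, 21.3 on day 2 and 16.0 in the day-5 library, and Col4a2 at 6.09 and 6.34, 11.6 and 6.57 FPKM. Both were highest on day 2 (0.61 and 0.80), with limma adjusted p of 0.165 and 0.0625. The ratio of Col4a1 to Col4a2 stayed between 1.84 and 2.44 in the 4 libraries. Among the proteoglycans, Col18a1 (the precursor of endostatin) was at 76.9 to 87.5 FPKM, Hspg2 (perlecan) at 33.0 to 43.0 and Agrn (agrin) at 14.4 to 27.6 over the 4 libraries. Agrn and Hspg2 were lowest in the day-5 library (-0.63 and -0.36, each at a limma adjusted p of 0.139 over all genes), and both had lower adjusted p in the strand-clear set (0.0304 and 0.0439) without a difference of 1.

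Among the glycoproteins, Postn and Tnc had the largest differences on day 2. Both encode matricellular proteins that are made in wounds, tumours and developing connective tissue. Postn (ENSMUSG00000027750.16) was at 2.39 and 2.79 FPKM in ES cells, 22.7 on day 2 and 2.66 in the day-5 library. It rose 8.76-fold (2.72, SE 0.12, limma adjusted p = 0.0396), and the call was lost with a pseudocount of 0.1 (adjusted p = 0.0559, with a range of 0.0109 to 0.0559 over 7 alternatives). On day 5 Postn lay between the ES libraries. Tnc (tenascin C, ENSMUSG00000028364.15) was at 33.4 and 35.3, 204 and 70.9 FPKM. It rose 5.95-fold on day 2 (2.54, SE 0.05, limma adjusted p = 0.0160), which placed it at rank 354 of the table against 2994 and 2835 in ES cells. By day 5 it was 2.07 times the ES mean (1.03, adjusted p = 0.139) and its difference from ES 2 was just under 1 on the log2(FPKM + 1) scale. An opposite gene covers 2.26% of the exon length of Tnc, which is outside the strand-clear set.

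Smaller differences were seen for the fibulins and Sparc. Fbln2 (fibulin 2, a binder of elastic fibres and basement membranes) was at 18.9 and 19.5 FPKM in ES cells, 42.6 on day 2 and 10.5 in the day-5 library. It rose 2.22-fold on day 2 (1.11, SE 0.04, limma adjusted p = 0.0315) and was below both ES libraries in the other (-0.81, adjusted p = 0.139, or 0.0247 among strand-clear genes). Fbln1, its relative, took the reverse order at 6.90 and 7.69, 5.16 and 10.7 FPKM, without a call in either comparison. Sparc, a collagen-binding glycoprotein, was at 48.3 and 46.6, 90.9 and 38.8 FPKM (0.92 on day 2, limma adjusted p = 0.0362), just under the threshold of 1.

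Fn1 stayed close to its ES level. It was at 265 FPKM on day 2 and 283 in the day-5 library, 1.11 and 1.18 times its ES mean, with no call. Apol7d exons on the opposite strand cover 2.50% of its exon length. Fbn1 (fibrillin 1, the microfibril protein) was at 2.95 and 3.24, 5.71 and 3.20 FPKM (0.71 on day 2, limma adjusted p = 0.0901). Exons of an opposite gene, at 0.182 FPKM or less, cover 20.1% of the exon length of Fbn1. Eln (elastin) was at 0.146 to 0.235 FPKM in the 4 libraries and was not tested. Dpt (dermatopontin, a collagen-binding protein of skin) was listed at 0 in both ES libraries, at 0.0349 FPKM on day 2 and at 1.19 in the day-5 library, where it rose by limma over all genes (1.13, adjusted p = 0.0356). That call was lost without the variance trend and among protein-coding genes only, with a range of 0.00343 to 0.134 over 5 alternatives. Dpt passed the filter of 1 FPKM through the day-5 library alone, and its p rests on variance borrowed from other genes.

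Small leucine-rich proteoglycans coat collagen fibrils. Dcn (decorin, ENSMUSG00000019929.15) was at 0.695 and 0.664 FPKM in ES cells, 6.68 on day 2 and 11.1 in the day-5 library. Both derived libraries lay well above both ES libraries. It rose 9.83-fold on day 2 (2.19, SE 0.05, limma adjusted p = 0.0192). In the day-5 library it was 16.4 times the ES mean (2.85, adjusted p = 0.104 over all genes) and rose in the strand-clear set (0.0128). Lum (lumican) is its neighbour on chromosome 10. Dcn lies at 97479609 to 97518143 and Lum at 97565128 to 97572703, both on the plus strand with 46984 nt between them. Lum was at 0.0160 FPKM in ES 1, 0 in ES 2, 0.0564 on day 2 and 0.493 in the day-5 library. The limit of 3 fragments for its gene model was 0.0390 FPKM in ES 1 and 0.0463 in ES 2, so Lum was not detected above it in ES cells. Bgn (biglycan), the abundant member, was at 32.7 and 32.5, 84.0 and 47.1 FPKM. It rose 2.58-fold on day 2 (1.34, SE 0.02, limma adjusted p = 0.00986).

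Over all genes, Lox was the 1 of the 7 enzyme and chaperone genes that was called, on day 2, when 7.67% of all genes were called. P4hb was at 244 FPKM on day 2 and 228 in the day-5 library, 1.09 and 1.01 times the ES mean. Plod1 and Plod2 encode lysyl hydroxylases, which prepare collagen lysines for crosslinking. Plod1 was at 5.55 to 6.87 FPKM in the 4 libraries and Plod2 at 23.4 to 30.4. Serpinh1 (HSP47, the collagen-specific chaperone) was at 23.4 and 22.2 FPKM in ES cells, 29.5 on day 2 and 16.8 in the day-5 library. None of these 4 genes was called in either comparison.

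Lysyl oxidases oxidise lysines of secreted collagen and elastin so that the fibres crosslink. Lox (ENSMUSG00000024529.13) was at 12.8 and 12.9 FPKM in ES cells, 40.7 on day 2 and 1.20 in the day-5 library. It rose 3.16-fold on day 2 (1.59, SE 0.04, limma adjusted p = 0.0201). In the day-5 library it was 10.7-fold below ES cells (-2.66, adjusted p = 0.0904 over all genes). That p ranged from 0.0265 to 0.134 over 6 alternatives, and Lox fell among protein-coding genes only, without a filter, and with a pseudocount of 0.1. Lox lies outside the strand-clear set, with 0.628% of its exon length under exons of an opposite gene. Loxl1 was at 2.44 and 2.14, 3.35 and 2.38 FPKM and Loxl2 at 1.94 and 2.17, 3.66 and 1.40 FPKM, with no call. The ratio of Lox to Loxl2 was 6.60 and 5.94 in ES cells, 11.1 on day 2 and 0.856 in the day-5 library.

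Set side by side, the derived libraries differed most, on the log2(FPKM + 1) scale, in Lox, Col12a1, Col5a2 and Postn (-4.24, -3.32, -2.73 and -2.69 for day 5 minus day 2). Neither library has a replicate, so this difference has no test. Lox was 33.9 times higher on day 2 than in the day-5 library, Col12a1 16.0 times, Postn 8.53 times and Col5a2 8.26 times. Col8a1 was 40.1 times higher on day 2, from a day-5 level of 0.101 FPKM. Col6a3 was 10.8 times higher in the day-5 library and Col6a2 5.44 times. Of the 38 genes, 14 were at least 2-fold apart on the log2(FPKM + 1) scale, 10 lower and 4 higher in the day-5 library, against 14.9% of all genes, 10.1% lower and 4.76% higher. The derived libraries lay on opposite sides of both ES libraries for 14 of the 38, against 27.4% of all genes. By role, the median difference of the day-5 library from day 2 was -0.79 over 5 fibrillar collagens, 1.69 over the collagen VI genes and -0.25 over 11 basement membrane genes.

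A further list of 69 matrix genes was read in the same fits: 19 other collagens, 7 laminins, 18 enzymes and chaperones of collagen synthesis, 18 receptors and 7 genes of latent TGF-beta. Of the 49 tested, limma called 1 on day 2 and 0 in the day-5 library, beside 7.67% and 0.396% of all genes. Their median differences were 0.38 and 0.03. The call was Col15a1, a collagen of basement membrane zones, which rose from 0.0982 and 0.134 FPKM to 2.15 (limma adjusted p = 0.0169), and was at 0.779 in the day-5 library. Col15a1 passed the filter of 1 FPKM through the day-2 library alone, where it was high. Ltbp2, a latent TGF-beta binding protein gene, was the other gene at least 1 above both ES libraries on the log2(FPKM + 1) scale on day 2, at 2.77 and 2.37 against 7.65 FPKM. By that size rule 2 of the 49 were higher, beside 8.84% of all genes.

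Of the 15 receptor genes tested limma called 0 on day 5 over all genes, against 0.396% of all genes. By the size rule 3 differed, 2 higher and 1 lower, against 1.63% and 0.734% of all genes. Itga3, a laminin-binding integrin chain, was at 16.2 and 16.9 FPKM in ES cells, 13.9 on day 2 and 3.84 in the day-5 library. Sdc4 (syndecan 4, a heparan sulphate co-receptor for fibronectin) was at 21.5 and 23.6, 35.0 and 59.96 FPKM. Itgb3, the beta chain of a vitronectin and fibronectin receptor, was at 0.538 and 0.548, 1.52 and 3.64 FPKM, and Col5a3, another collagen V chain, at 0.126 and 0.166, 0.327 and 1.77 FPKM. Col5a3 passed the filter of 1 FPKM through the day-5 library alone. On day 5 these receptor genes and Col5a3 differed by at least 1 from each ES library on the log2(FPKM + 1) scale, with limma adjusted p of 0.0969 to 0.139 over all genes. Itga3, Sdc4 and Itgb3 were called by limma in the strand-clear set (adjusted p = 0.0164, 0.0229 and 0.0185), where 2.3% of genes were called.

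Fibroblast markers outside the matrix list were read in the same libraries. A list of 18 fibroblast names held 17 genes of the table, whose FPKM summed to 214 in both ES libraries, 422 on day 2 and 114 in the day-5 library. Of the 17, 14 were above both ES libraries on day 2, against 48.4% of all genes. Of the 14 that were tested, limma called 2 higher on day 2, Cd44 and S100a4, against 7.32% of all genes. In the day-5 library 10 were above and 6 below both ES libraries, against 37.6% and 42.9% of all genes. The lower day-5 sum came with a few abundant genes, among them Vim at 101 and 102 FPKM in ES cells and 41.2 on day 5. Cd44, a hyaluronan receptor, was at 23.3 and 23.9, 77.1 and 6.06 FPKM, and the transcription factor gene Prrx1 at 6.65 and 7.66, 21.1 and 6.66. Pdgfrb, a receptor of fibroblasts and pericytes, was at 1.63 and 1.40, 3.25 and 4.80. Fap and Tcf21 were listed at 0 in both ES libraries, and Mgp at 0 on day 2.

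The 6 contractile genes, as found in myofibroblasts and smooth muscle, summed to 275 and 284 FPKM in ES cells, 584 on day 2 and 58.8 in the day-5 library. All 6 were above both ES libraries on day 2 and below both in the day-5 library. Over all genes 48.4% and 42.9% were so placed, and 27.4% lay on opposite sides in either order. Acta2 (smooth muscle actin) was at 82.8 and 88.7, 234 and 1.06 FPKM. The 9 endoderm genes, markers of cells that lay down much basement membrane, summed to 7.43 to 8.96 FPKM in the 4 libraries. Dab2 was the most abundant of them at 4.81 to 6.54 FPKM. Sox7 was at 0.568 and 0.500 FPKM in ES cells, 0.507 on day 2 and 1.08 in the day-5 library. Gata4, Gata6, Sox17 and Foxa2 were each under 1 FPKM in all 4 libraries. Afp and Ttr were at 0 in ES 2 and on day 2, and Ttr also in the day-5 library. The 4 genes of cartilage and bone summed to 4.93 to 8.21 FPKM, of which Acan was the most abundant at 3.39 to 4.42. The 4 of endothelium summed to 16.7 to 25.4 FPKM, with Cdh5 at 0 in ES 1. The part of feeder or contractile cells in the differences of the matrix genes was not tested. In such bulk samples fewer cells of a type and less RNA per cell cannot be told apart.

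**Figure D4:**
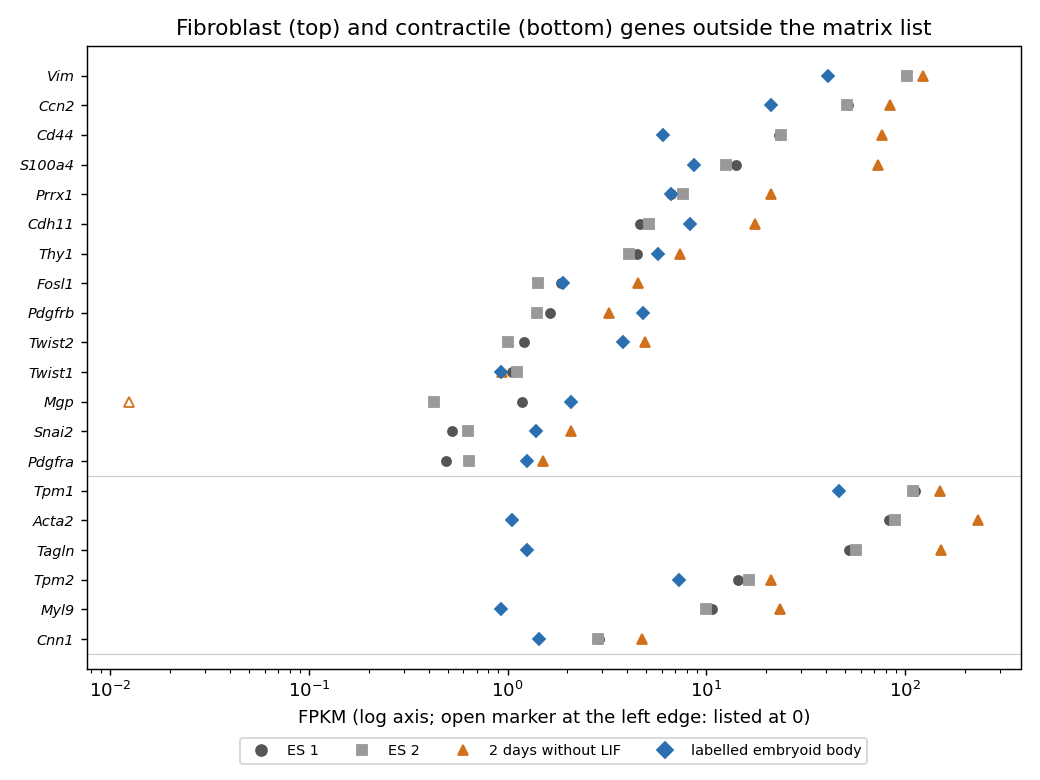
FPKM on a log axis of the 14 tested fibroblast genes (top) and 6 contractile genes (bottom) that are not among the 40 matrix genes, with 1 marker for each library. The 6 contractile genes are highest on day 2 and lowest in the day-5 library, while Pdgfrb and Twist2 are above both ES libraries in both derived libraries.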

How the data were processed

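Total RNA libraries were sequenced from 2 ES samples, 1 sample 2 days after LIF withdrawal (day 2) and 1 labelled embryoid body (day 5). The authors deposited FPKM, 1 value per gene and library. The submitters' processing notes name Cufflinks, STAR, Trimmomatic 0.36 and build mm10, and the sources used here give neither their roles and options nor the annotation or strand setting. FPKM depend on the library total, and the 10 most abundant genes held 44.7% of the FPKM sum on day 2 against 9.80% to 17.4% in the others, while median-of-ratios factors were 0.979 to 1.03.

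Gene symbols, coordinates and opposite-strand overlaps were taken from GENCODE mouse release 21 (mm10), and 47219 of 47633 identifiers matched without their version. The 15676 genes that reached 1 FPKM in any library were fitted by limma 3.58.1 (R 4.3.3), as log2(FPKM + 1), in 1 model of all 4 libraries with a variance trend and 1 residual degree of freedom. Differences on this scale understate those of low genes. Benjamini-Hochberg adjustment ran over all genes. A call needed an adjusted p under 0.05 and a difference of at least 1. The size rule took genes at least 1 from each ES library in the same direction. Depth was estimated by taking the commonest low product of FPKM and exon length, over single-transcript genes with 3000 nt or more, as 1 fragment. Every gene of the list was named; of the other matrix genes, those called or 2-fold from both ES libraries were named. The naming rule set a minimum of 5 FPKM for these others, and Col15a1, Itgb3 and Col5a3, which are lower, were named after their values were seen. The genes, lists and the strand-clear set were chosen with earlier results of these data known. Motifs were searched with Python 3.11.15. No protein sequences were used here.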

Additional observations from a re-analysis of the deposited data

Results flagged for a closer look

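Matrix genes on opposite sides of both ES libraries in the derived libraries numbered 14 of the 38 tested, against 27.4% of all genes. Their difference was not tested, because each derived condition has 1 library. On the log2(FPKM + 1) scale the day-5 library minus the day-2 library was -4.24 for Lox, -3.32 for Col12a1, -2.73 for Col5a2 and -2.20 for Col8a1. It was -1.93 for Fbln2, -1.26 for Col1a1 and -1.21 for Sparc. Smaller differences were -0.96 for Loxl2, -0.90 for Agrn, -0.78 for Serpinh1, -0.59 for Lamb1, -0.52 for Col1a2 and -0.25 for Lama5. Fbln1 (0.93) was the 1 gene of the 14 that was below ES cells on day 2 and above them in the day-5 library.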

How the results depend on the processing

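On day 2 the count of matrix genes called ranged from 6 (of 23 in the strand-clear set) to 11 over the alternatives, all higher, beside 9. The size rule gave 6 in the strand-clear set and 10 to 11 elsewhere. Limma called 3.07% of the strand-clear set and 4.55% of protein-coding genes on day 2, against 7.67% of all genes. For the other alternatives, and for the size rule in any alternative, no share over all genes is given. Whether those counts moved with that share was not examined. The median difference of 0.49 was 0.69 with a pseudocount of 0.1, 0.38 without a filter, 0.57 with a mean of at least 1 FPKM, 0.45 with median-of-ratios scaling and 0.36 in the strand-clear set. Leaving out each ES library in turn gave 10 to 11 genes and medians of 0.45 to 0.51.

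In the day-5 library, beside 1 call, limma called 2 genes with a pseudocount of 0.1, 3 without a filter, 0 with a mean of at least 1 FPKM, 0 without the trend, 3 among protein-coding genes and 6 in the strand-clear set. Its median difference was -0.19 in the strand-clear set and -0.012 to 0.0438 with each ES library left out, so its sign is not settled. The size rule gave 9 to 10 genes with an ES library left out, 11 with a pseudocount of 0.1, 8 with a mean of at least 1 FPKM and 6 in the strand-clear set, beside 9. Limma called 2.3% of the strand-clear set and 0.558% of protein-coding genes on day 5, against 0.396% of all genes. As for day 2, no share over all genes is given for the other alternatives or for the size rule in them. Median-of-ratios scaling reversed Lama5 on day 2 (-0.0076) and Lamc1 in the day-5 library (0.0018), both near 0. The cause was not tested.

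No paired analysis was possible because each derived condition has 1 library. With 1 ES library left out no residual degree of freedom remains, so those values have no test. Depth limits Lum and Dpt in ES cells and on day 2.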
